A study of Homo sapiens with 12 samples.

Results

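The comparison described here is COMBO against DMSO, cells that received GDC-0941, an inhibitor of all class I PI3K isoforms, together with GSK126, an inhibitor of EZH2, against cells that received vehicle. It was chosen as the 6 libraries with these labels, 3 a side, out of 12 libraries in the series. The cells were C4.2B, an established human prostate cancer line, a castration-resistant derivative of LNCaP, so the results are those of 1 line. COMBO cells were pretreated for 6 days with GSK126 and then received 0.5 µM GDC-0941 and 5 µM GSK126 for 24 h, while DMSO cells received vehicle throughout. The other arms were GDC (0.5 µM GDC-0941 alone, after vehicle) and GSK (5 µM GSK126 alone, with the same pretreatment), and for these 24 h all 4 arms were kept in medium with 10% charcoal-stripped serum, which is low in androgens. Per the study's methods, triplicate plates were seeded on the day before the 24 h treatment, from cells already under pretreatment. Whether the pretreatment itself was replicated is not stated. Replicates A, B and C are thus plates of 1 experiment, and p-values measure the spread between such plates.

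PI3K makes the membrane lipid that activates AKT and, through it, mTORC1. AKT keeps FOXO transcription factors out of the nucleus, while mTORC1 promotes ribosome production and lipid and nucleotide synthesis. EZH2 is the catalytic subunit of Polycomb repressive complex 2 (PRC2), which trimethylates lysine 27 of histone H3 at silent genes, developmental regulators among them. Genes of S phase are commonly controlled by E2F factors and those of mitosis by the DREAM and MMB complexes, which act through CHR elements in promoters.

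Gene counts summed to 10199514 to 44437751 a library in DMSO and to 12705581 to 21150375 in COMBO. Levels are given as CPM, counts per 1e+06 counts after TMM scaling, and a count of 0 allows up to 0.0675 to 0.294 CPM in these libraries. The prostate luminal identity of the line was visible in both arms, with KLK3 and FOLH1 above 200 CPM in each library. Of 11 leukocyte and endothelial markers 2 passed the filter on low counts and 3 had 0 counts in all 6 libraries, and the summed level of that list was 7.58 to 8.95 CPM in DMSO and 13.3 to 15.3 CPM in COMBO. The basal list had 1 of 7 markers tested. The part of such other cells in the results was not tested. EZH2 itself was at 105, 107 and 102 CPM in DMSO and 34.7, 35.9 and 34.3 CPM in COMBO (log2 fold change -1.58, SE 0.0577, adjusted p = 1.37e-15), a transcript level that does not measure the activity of the enzyme. Since these are bulk libraries, fewer cells of a kind and less RNA per cell cannot be told apart.

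Most of the transcriptome differed between COMBO and DMSO. Of 14189 genes tested, 11703 (82.5%) passed the edgeR quasi-likelihood test at a Benjamini-Hochberg adjusted p under 0.05, 6148 of them higher in COMBO (43.3%) and 5555 lower (39.2%). The 3 COMBO libraries did not overlap the 3 DMSO libraries for 11629 genes (82%). Counts by list and statements of no overlap below are to be read against these shares. Falls were more frequent among small changes and rises among large ones. A rise of at least 2-fold was called for 2822 genes (19.9%) and a fall of that size for 1590 (11.2%), a rise of at least 8-fold for 379 and a fall of that size for 44, and a rise of at least 16-fold for 129 and a fall for 8. Over the genes tested the log2 fold change had a median of 0.054. With library totals in place of TMM that median moved by 0.21 and the calls became 7477 higher and 4342 lower, so that higher calls made up 63.3% in place of 52.5%, and small changes are to be read against that shift.

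**Figure D1:**
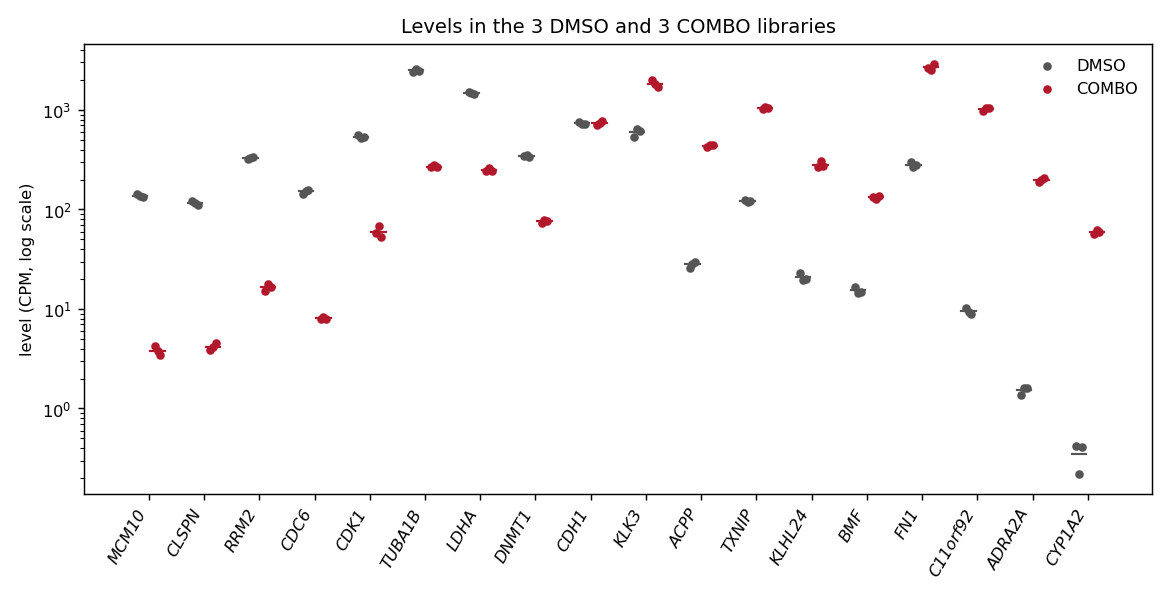
Level (CPM, log scale) of 18 genes in each DMSO library (grey) and COMBO library (red), with a bar at the mean of 3. MCM10 fell from 134 to 142 CPM in DMSO to 3.42 to 4.24 CPM in COMBO, C11orf92 rose from 8.97 to 10.3 CPM to 976 to 1052 CPM, and the CDH1 libraries overlap.

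Of the 12 largest falls among well expressed genes 5 were members of the DNA replication list (MCM10, CLSPN, CDC6, DTL and CDC45). The 12 genes with the largest falls were MCM10, CLSPN, UHRF1, RRM2, CDC6, EXO1, ZNF367, DTL, E2F2, RAD54L, CDC45 and TUBA4A, from 35.6-fold for MCM10 to 13.4-fold for TUBA4A. TUBA4A is an alpha-tubulin that shares exons with TUBA4B and STK16, and ZNF367 is a zinc finger factor. The members were chosen for their falls in this comparison, and their promoters are shown as a description of that set. Each was searched, on both strands and over 300 bases from 250 before to 50 after the RefSeq start (GRCh38.p14), for the E2F forms TTGGCGC and TTCCCGC, for the CHR element TTTGAA and for CCAAT, which can overlap the first E2F form. An E2F form was present in the promoters of 7 of these 12 genes, against 14.6% of the 10838 tested genes with a promoter in the RefSeq table and 9.33% of all 27305 promoters there. It was present in 18 of 36 promoters (50%) of the genes that fell at least 8-fold, in 23.1% of those that fell at least 2-fold and in 9.41% of those that rose at least 2-fold. The 100 bases before the start are printed for the 5 of the 12 that hold an E2F form within them, in lower case with E2F and CCAAT matches in capitals.
UHRF1 (chr19:4909401-4909500, plus strand): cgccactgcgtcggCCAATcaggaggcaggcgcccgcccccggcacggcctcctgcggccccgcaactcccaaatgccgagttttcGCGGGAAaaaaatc
ZNF367 (chr9:96418371-96418470, minus strand): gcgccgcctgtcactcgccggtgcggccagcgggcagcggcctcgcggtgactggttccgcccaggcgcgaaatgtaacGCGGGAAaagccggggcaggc
DTL (chr1:212035648-212035747, plus strand): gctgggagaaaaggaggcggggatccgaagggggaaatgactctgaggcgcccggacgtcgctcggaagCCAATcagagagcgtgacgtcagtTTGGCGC
E2F2 (chr1:23531234-23531333, minus strand): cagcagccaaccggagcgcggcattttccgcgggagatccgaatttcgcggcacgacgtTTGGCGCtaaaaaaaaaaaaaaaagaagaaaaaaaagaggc
RAD54L (chr1:46247588-46247687, plus strand): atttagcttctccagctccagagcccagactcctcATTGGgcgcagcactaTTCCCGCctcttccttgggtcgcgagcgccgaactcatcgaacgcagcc
A match of these letters is a description of the sequence, and binding was not measured. The other 7 genes had no exact E2F match in this 100-base window.

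DNA replication genes fell nearly without exception. Of 52 measured members 50 fell, 0 rose and 2 (ORC3 and ORC4, subunits of the origin recognition complex) did not pass the test, and the median log2 fold change was -2.38 against 0.054 for all genes. MCM10, which helps to start and stabilise the replication fork, was at 142, 136 and 134 CPM in DMSO and 4.24, 3.77 and 3.42 CPM in COMBO (log2 fold change -5.15, SE 0.0798, adjusted p = 5.87e-21). CLSPN, the adaptor that passes the checkpoint signal from ATR to CHK1, was at 121, 116 and 112 CPM in DMSO and 3.89, 4.17 and 4.52 CPM in COMBO, a fall of 27.6-fold. CDC6, which loads the MCM helicase onto origins, was at 142, 155 and 158 CPM in DMSO and 7.9, 8.34 and 7.86 CPM in COMBO, a fall of 18.9-fold. In these 3 genes every COMBO library lay far below every DMSO library. CDC45, a subunit of the active helicase, and DTL, the adaptor that marks the licensing factor CDT1 for destruction, had log2 fold changes of -3.78 and -3.98. DTL overlaps exons of INTS7, and the use of strand in counting was not stated, so its value carries that limit.

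Nucleotide supply and repair moved in the same direction. Of 28 nucleotide synthesis genes 27 fell, with a median of -1.28, and RRM2B, the p53-regulated ribonucleotide reductase subunit, did not pass the test. RRM2, the S-phase subunit of that enzyme, was at 319, 327 and 336 CPM in DMSO and 15.2, 17.7 and 16.7 CPM in COMBO (log2 fold change -4.30, SE 0.0657, adjusted p = 5.49e-21), with some uncertainty from 3 named pseudogenes. TYMS and TK1, which supply thymidylate, fell by 6.73-fold and 4.82-fold. Of 39 genes of homologous recombination and the checkpoint 34 fell, 2 rose and 3 did not pass the test (median -1.91). EXO1, a nuclease that resects DNA ends, was at 65.8, 66.6 and 69.5 CPM in DMSO and 4.41, 3.73 and 3.42 CPM in COMBO. BLM, the Bloom helicase, and RAD54L, a motor protein of strand exchange, had log2 fold changes of -3.04 and -3.92. ATM, the kinase activated by double strand breaks, went the other way, at 52.6, 47.8 and 47.2 CPM in DMSO and 110.5, 90.1 and 101 CPM in COMBO (log2 fold change 1.04, SE 0.107, adjusted p = 2.17e-08). Its libraries did not overlap, as was so for 82% of all genes tested, and it shares exons with C11orf65. FANCE, a Fanconi core subunit, rose by 0.27 on the log2 scale, a call lost under DESeq2, without a filter and in the fits without DMSO A, DMSO C, COMBO A or COMBO C.

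All 48 mitosis genes fell, with log2 fold changes from -3.22 to -0.90 and a median of -2.05. CDK1, the kinase that drives entry into mitosis, was at 559, 523 and 536 CPM in DMSO and 58.3, 67.9 and 52.3 CPM in COMBO (log2 fold change -3.17, SE 0.0715, adjusted p = 1.15e-18). AURKB, the kinase of the chromosomal passenger complex, was at 45.8, 53 and 49.5 CPM in DMSO and 5.86, 5.55 and 7.43 CPM in COMBO, and CENPK, a kinetochore protein, at 32.4, 33 and 37.2 CPM in DMSO and 3.66, 3.91 and 3.42 CPM in COMBO. The groups did not overlap in any of the 48, against 82% of all genes tested. The mitosis promoters differed from the replication promoters in the motif they held. The CHR element was present in 27 of 41 mitosis promoters (65.9%) and 1 of 45 replication promoters (2.22%), against 9.47% of all tested genes, while the E2F forms were present in 8 of 41 (19.5%) and 26 of 45 (57.8%). The 100 bases before the start are printed for the 3 mitosis genes with the largest falls among those with CHR in that window, with CHR, CCAAT and E2F matches in capitals.
NCAPG (chr4:17810879-17810978, plus strand): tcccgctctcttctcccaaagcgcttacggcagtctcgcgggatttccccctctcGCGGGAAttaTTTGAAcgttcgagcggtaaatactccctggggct
ESPL1 (chr12:53268199-53268298, plus strand): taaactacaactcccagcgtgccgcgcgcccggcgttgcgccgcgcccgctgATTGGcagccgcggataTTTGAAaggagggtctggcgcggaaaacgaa
BUB1B (chr15:40160969-40161068, plus strand): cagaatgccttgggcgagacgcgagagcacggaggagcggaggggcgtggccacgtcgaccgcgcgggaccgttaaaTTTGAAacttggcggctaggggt
NCAPG is a condensin subunit, ESPL1 is separase and BUB1B a spindle checkpoint kinase, and their log2 fold changes were -2.58, -2.52 and -2.40.

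**Figure D2:**
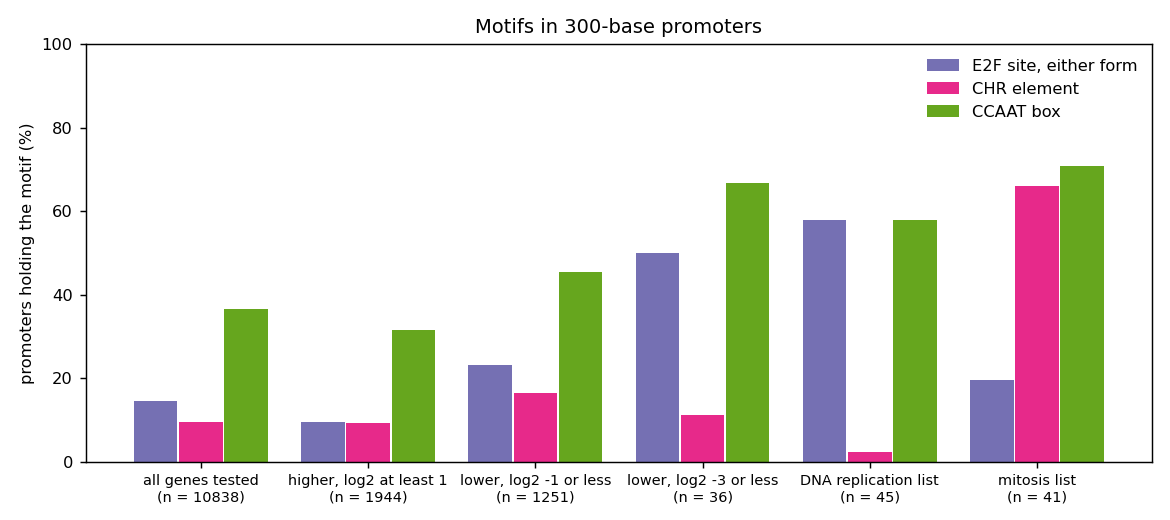
Share of 300-base promoters (%) that hold an E2F form, the CHR element or CCAAT on either strand, for all tested genes, genes called by size of change and the replication and mitosis lists. E2F forms reach 57.8% in the replication list and CHR 65.9% in the mitosis list, against 14.6% and 9.47% of all tested genes.

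Regulators of the cell cycle split. Of 34 cyclins, CDK inhibitors and E2F-RB genes 21 fell, 8 rose and 5 did not pass the test. Over all genes 39.2% were lower and 43.3% higher. E2F2, E2F8 and CDC25A, the phosphatase that activates CDK2, fell by 15.2-fold, 13.1-fold and 11.6-fold. On the other side, BTG1, an antiproliferative factor, was at 157, 172 and 175 CPM in DMSO and 1354, 1464 and 1349 CPM in COMBO (log2 fold change 3.04, SE 0.0477, adjusted p = 6.63e-21). CDKN1C, which encodes the CDK inhibitor p57, was at 2.32, 2.49 and 1.64 CPM in DMSO and 26.6, 27.1 and 28.6 CPM in COMBO (log2 fold change 3.78, SE 0.134, adjusted p = 8.86e-16), and CCND2 (cyclin D2) rose from 0.498 to 0.602 CPM to 8.59 to 10.8 CPM. CDKN1A, which encodes p21, CDKN2A, CCND1, CDK6 and CCNG1 did not pass the test, with log2 fold changes from -0.03 to 0.22.

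**Figure D3:**
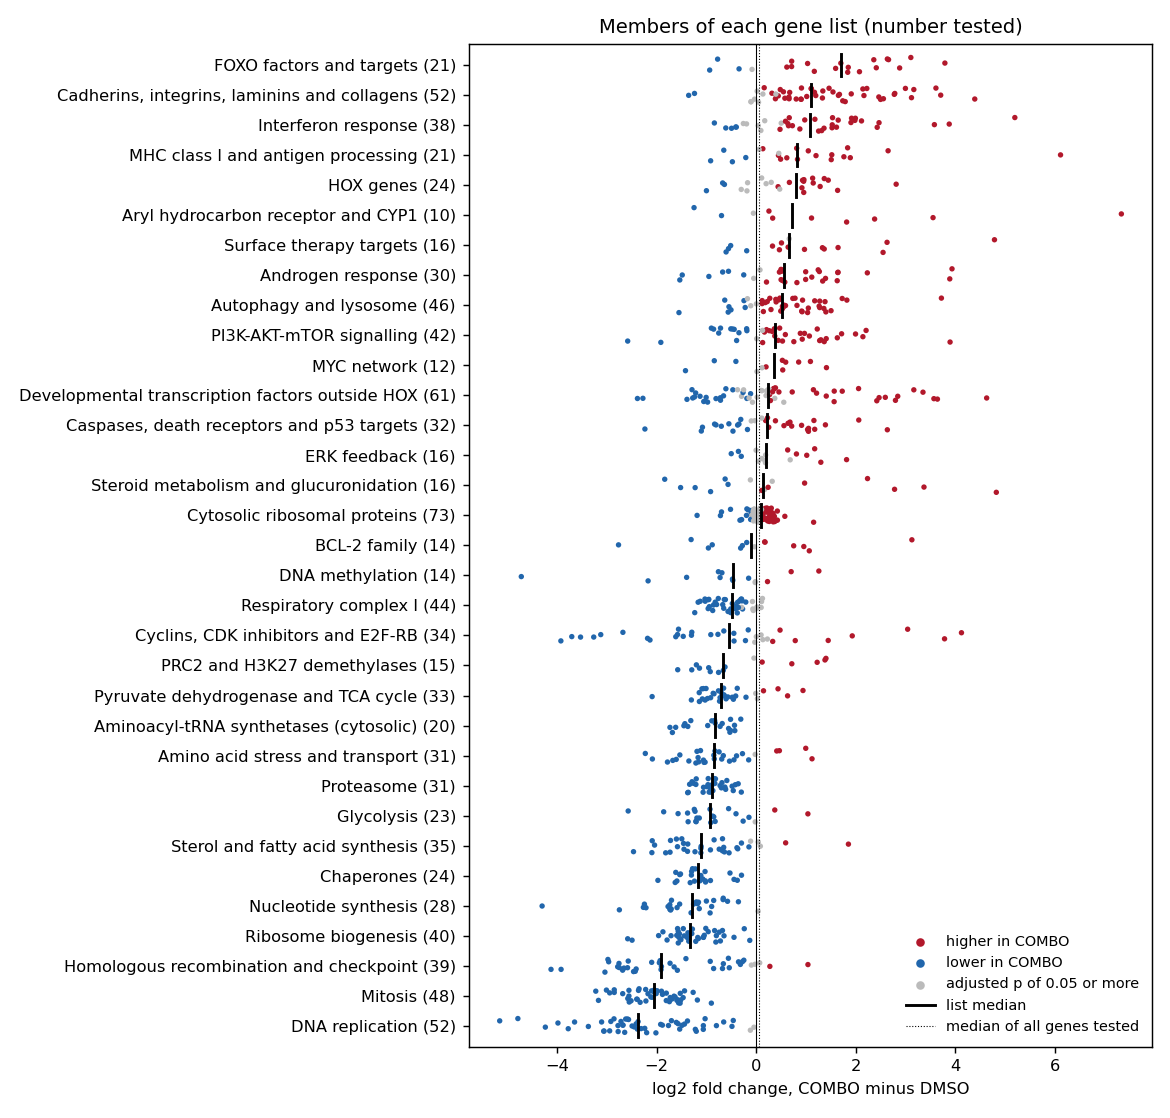
Log2 fold change of each tested member of 33 gene lists (red higher, blue lower, grey not past the test), with a black bar at the list median and the number tested in brackets. The replication and mitosis lists lie wholly at or below 0, and the FOXO list has the highest median, 1.70.

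The protein-making and metabolic programmes fell. All 40 ribosome biogenesis genes fell (median -1.33), led by TCOF1, the treacle protein that supports rRNA transcription, at 239.9, 262 and 249 CPM in DMSO and 39.8, 41.2 and 44.8 CPM in COMBO (log2 fold change -2.58, SE 0.056, adjusted p = 6.88e-19). LYAR and NOP16, nucleolar factors, fell by 5.63-fold and 3.9-fold. All 20 cytosolic aminoacyl-tRNA synthetases fell as well, from 1.24-fold for QARS to 3.33-fold for FARSB. The ribosomal proteins did not follow. Of 73 tested 37 rose, 12 fell and 24 did not pass the test, with a median of 0.098. EEF2, the elongation factor that moves the ribosome along the message, rose from 3015 to 3314 CPM in DMSO to 4376 to 4725 CPM in COMBO. With library totals 63 ribosomal proteins were higher and 5 lower, and many of them have named pseudogenes (36 for RPS26), so single members are uncertain.

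Amino acid and carbon metabolism genes were lower in COMBO. Of 31 genes of amino acid stress and transport 26 fell, among them the serine pathway enzymes PSAT1, at 465, 477 and 465 CPM in DMSO and 97.4, 105 and 97.4 CPM in COMBO (log2 fold change -2.23, SE 0.0457, adjusted p = 3.39e-19), PSPH (-1.78) and MTHFD2 (-2.09). The stress genes NUPR1 and DDIT3, which encodes CHOP, rose within the same list, by 2.17-fold and 1.99-fold. Of 23 glycolysis genes 20 fell, 2 rose and PFKFB4 did not pass the test. LDHA, lactate dehydrogenase A, was at 1527, 1472 and 1454 CPM in DMSO and 245, 261 and 242 CPM in COMBO (log2 fold change -2.57, SE 0.041, adjusted p = 7.40e-21), and HK2 and ENO1 had log2 fold changes of -1.86 and -1.57. ENO2, the neuronal enolase, rose by 2.05-fold. Of 33 genes of pyruvate dehydrogenase and the TCA cycle 27 fell, led by DLAT, the E2 subunit of pyruvate dehydrogenase, at 407, 378 and 409 CPM in DMSO and 89, 102 and 88.8 CPM in COMBO. PDK2, a kinase that switches that enzyme off, rose by 1.92-fold while PDK1 fell by 2.21-fold. Of 44 complex I genes 35 fell and 0 rose, with smaller changes (median -0.48). With library totals 7 complex I genes were higher.

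Of 35 genes of sterol and fatty acid synthesis 30 fell (median -1.11). EBP, a sterol isomerase, was at 133, 140.2 and 132 CPM in DMSO and 25.2, 23.3 and 25.1 CPM in COMBO (log2 fold change -2.47, SE 0.0625, adjusted p = 5.51e-18), and FADS1, a fatty acid desaturase, had a log2 fold change of -2.09. TM7SF2, a sterol reductase, rose from 56.6 to 58.2 CPM to 204 to 215 CPM (log2 fold change 1.85, SE 0.0461, adjusted p = 4.33e-18), so this enzyme moved against its pathway. Protein quality genes fell together. All 24 chaperones fell (median -1.18), with HSPH1 at 947, 935 and 937 CPM in DMSO and 234, 248 and 234 CPM in COMBO, and all 31 proteasome subunits fell (median -0.89), with PSMA3 the lowest at -1.38. By loss of CPM the 6 genes that fell most were HSP90AA1, HSPA8, TUBA1B, TUBB, HSP90AB1 and GAPDH. TUBA1B was at 2389.8, 2604 and 2487 CPM in DMSO and 268, 277 and 264 CPM in COMBO and TUBB at 2319, 2458 and 2386 CPM in DMSO and 369, 384 and 381 CPM in COMBO, falls of 9.24-fold and 6.32-fold. Both tubulins were named for their loss of CPM, and in neither did the groups overlap, as was so for 82% of all genes tested.

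Most genes that FOXO factors are known to drive were higher. Of 21 FOXO genes and targets tested 17 rose, 3 fell (SOD2, PCK2 and KLF15) and ZFAND5 did not pass the test (median 1.70). The shares over all genes were 43.3% higher and 39.2% lower. TXNIP, which restrains glucose uptake and thioredoxin, was at 125, 119 and 121 CPM in DMSO and 1028, 1065 and 1046 CPM in COMBO (log2 fold change 3.10, SE 0.0428, adjusted p = 1.64e-21). KLHL24, an adaptor of a ubiquitin ligase, was at 22.8, 19.6 and 19.9 CPM in DMSO and 269, 304 and 274 CPM in COMBO (log2 fold change 3.79, SE 0.0715, adjusted p = 1.21e-19), and FBXO32, the ligase atrogin-1, was at 3.05, 2.05 and 2.86 CPM in DMSO and 19.6, 18.8 and 20.6 CPM in COMBO. These 3 genes had no overlap between the groups, as was so for 82% of all genes tested. Of the 3, TXNIP was 253 CPM on average in GDC and 484 CPM in GSK, KLHL24 was 98.8 and 116 CPM, and FBXO32 was 7.8 and 9.02 CPM. COMBO exceeded each single agent for each of the 3 genes, by 2.05 (adjusted p = 6.33e-19) and 1.11 (adjusted p = 2.85e-14) for TXNIP against GDC and GSK on the log2 scale. For KLHL24 these differences were 1.52 (adjusted p = 1.60e-14) and 1.28 (adjusted p = 2.52e-12).

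Within the PI3K-AKT-mTOR list 27 of 42 tested members rose, 13 fell and 2 did not pass the test, against 43.3% higher and 39.2% lower over all genes. PIK3IP1, a membrane inhibitor of PI3K, was at 2.84, 2.93 and 3.73 CPM in DMSO and 48.7, 50.7 and 50.5 CPM in COMBO (log2 fold change 3.89, SE 0.11, adjusted p = 2.31e-17). GAB2, a docking protein that brings PI3K to receptors, rose by 4.62-fold. IGF1, the growth factor, was at 149, 138 and 158 CPM in DMSO and 23.8, 26.8 and 23.4 CPM in COMBO (log2 fold change -2.58, SE 0.0724, adjusted p = 2.22e-17), and EIF4EBP1, the translation repressor that mTORC1 inactivates, and PIK3CB, a catalytic isoform of PI3K, fell by 3.78-fold and 1.87-fold. ERBB3, a receptor that couples to PI3K, rose from 214 to 228 CPM to 422 to 447 CPM. Of 46 autophagy and lysosome genes 36 rose, 7 fell and 3 did not pass the test (median 0.53), against the same shares over all genes. OPTN, an autophagy receptor, was at 4.32, 5.75 and 5.22 CPM in DMSO and 65.5, 71.2 and 69.9 CPM in COMBO (log2 fold change 3.72, SE 0.094, adjusted p = 5.33e-18), and CTSF, a lysosomal protease, and GABARAPL1, an ATG8 protein, rose by 3.53-fold and 3.31-fold. Of 16 feedback genes of the ERK pathway 6 rose, 3 fell and 7 did not pass the test, a share of rises near the 43.3% of all genes. With library totals 10 rose and 1 fell. FOS, an immediate early factor, had the largest rise, 3.52-fold, and DUSP6 and DUSP1, phosphatases of MAP kinases, rose by 2.46-fold and 2.25-fold, while EGR1 and SPRY2 had log2 fold changes of 0.19 and 0.19 and overlapped between the groups.

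The core subunits of PRC2 and most of its accessory subunits fell, while EZH1, JARID2 and PHF1 rose. Of 15 genes of PRC2 and the H3K27 demethylases 9 fell, 5 rose and LCOR did not pass the test. The shares over all genes were 39.2% lower and 43.3% higher. EZH2, SUZ12 and EED fell by 2.98-fold, 2.3-fold and 2.21-fold. EZH1, the other catalytic subunit, was at 15.8, 16.7 and 16.1 CPM in DMSO and 38.3, 36.5 and 39.3 CPM in COMBO (log2 fold change 1.22, SE 0.0663, adjusted p = 7.61e-13). The accessory subunits C17orf96, PHF19, MTF2 and AEBP2 had log2 fold changes of -1.30, -0.92, -0.76 and -0.66. The accessory subunit JARID2 and the demethylase KDM6B rose by 2.64-fold and 2.6-fold. Of 14 DNA methylation genes 9 fell, 3 rose and 2 did not pass the test, against the same shares over all genes. UHRF1, which brings the maintenance methyltransferase to replicated DNA, was at 66.5, 66.2 and 64.2 CPM in DMSO and 2.21, 2.97 and 2.04 CPM in COMBO (log2 fold change -4.72, SE 0.0999, adjusted p = 5.26e-19), and DNMT1, that methyltransferase, at 344, 354 and 335 CPM in DMSO and 73.8, 77.7 and 77.2 CPM in COMBO, a fall of 4.51-fold. DNMT3A, a de novo methyltransferase, rose by 2.39-fold and TET2, which oxidises methylcytosine, by 1.63-fold. DNA and histone methylation were not measured in these libraries.

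The 12 genes with the largest rises were CYP1A2, SEMG2, ADRA2A, C11orf92, GAB3, KCNJ13, C11orf93, SHISA2, ABP1, SLC5A1, C18orf1 and ZMAT1. In none of their 11 promoters in the RefSeq table was an E2F form present. The share was 14.6% of all tested genes and 9.41% of those that rose at least 2-fold. With 11 promoters the count cannot be told from these shares. ADRA2A, the alpha-2A adrenergic receptor, lies at chromosome 10, 111077029 to 111080907 and was at 1.37, 1.6 and 1.61 CPM in DMSO and 191, 199 and 205 CPM in COMBO (log2 fold change 6.97, SE 0.0971, adjusted p = 1.64e-21). It stood at 4.98 CPM in GDC and 49 CPM in GSK, and COMBO was above GSK by 2.02 (adjusted p = 5.51e-15) on the log2 scale. SLC5A1, the sodium-glucose transporter SGLT1, was at 1.05, 1.33 and 0.674 CPM in DMSO and 44.3, 42.3 and 54 CPM in COMBO, a rise of 51-fold. SEMG2, which encodes a semenogelin of seminal fluid, was at 0, 0.0553 and 0.0722 CPM in DMSO and 9.58, 10.6 and 9.1 CPM in COMBO. The ratio of pooled counts, over library totals without TMM, was 197-fold (95% counting interval 76.3 to 724, from 4 and 528 counts). The fit with TMM gave a rise of 150-fold. SEMG2 averaged 14.6 CPM in GSK, and COMBO was below GSK by 0.57 on the log2 scale (adjusted p = 0.000413). ABP1 did not differ between COMBO and GSK (0.074, adjusted p = 0.659), while the others of the 12 were higher in COMBO. GAB3, a docking protein of the GAB family, had a ratio of 127-fold (95% counting interval 57.9 to 347, from 6 and 511 counts). KCNJ13, a potassium channel, rose by 88.3-fold, and its exons overlap those of GIGYF2.

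Neighbouring genes on chromosome 11 rose together. C11orf92, a long noncoding RNA now named COLCA1, lies at 111290787 to 111305498 on the minus strand and was at 10.3, 9.23 and 8.97 CPM in DMSO and 976, 1052 and 1047 CPM in COMBO (log2 fold change 6.78, SE 0.0677, adjusted p = 1.01e-23). C11orf93, a coding gene on the plus strand now named POU2AF3, lies at 111298546 to 111308735 and rose from 0.211 to 0.608 CPM to 30.3 to 35.8 CPM (log2 fold change 6.38, SE 0.194, adjusted p = 7.92e-17). Their exons overlap on opposite strands, so without strand information their reads cannot be told apart. C11orf53, now named POU2AF2, lies beside them at 111245725 to 111286401 with no exon shared with either. It had 0 counts in the 3 DMSO libraries and 98 counts in COMBO. By library totals, without TMM, it was at least 48.7-fold higher against a floor of 3 pooled counts. POU2AF2 and POU2AF3 are coactivators of the POU2F factors. The C11orf92 mean was 33.3 CPM in GDC and 535 CPM in GSK, so it was above the DMSO libraries in each single-agent arm and highest in COMBO, where it exceeded GSK by 0.94 (adjusted p = 5.99e-12) on the log2 scale. The other genes with 0 counts in DMSO and the most in COMBO were GNGT2, RGS22, FXYD6 and PLCB2, each at least 22.8-fold higher. Of the genes with 0 counts in COMBO, the 5 with the most counts in DMSO had 11 to 21 there, and C16orf73, with 21, was at least 4.7-fold lower.

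Of 10 genes of the aryl hydrocarbon receptor and CYP1 family tested 7 rose, 2 fell and 1 did not pass the test, against 43.3% higher and 39.2% lower over all genes. CYP1A2, a drug-metabolising oxidase known mainly from liver, was at 0.421, 0.221 and 0.409 CPM in DMSO and 56.5, 62.2 and 59.4 CPM in COMBO (log2 fold change 7.33, SE 0.17, adjusted p = 1.59e-18). CYP1A1, its neighbour on chromosome 15, was at 2.42, 2.21 and 1.97 CPM in DMSO and 24.3, 25.6 and 24.5 CPM in COMBO (log2 fold change 3.55, SE 0.116, adjusted p = 2.44e-16). CYP1B1 went the other way, from 6.86 to 7.29 CPM to 2.61 to 3.33 CPM. The receptor AHR itself rose by 2.16-fold and its repressor AHRR by 3.52-fold, and NQO1 fell by 1.62-fold. CYP1A1 and CYP1A2 thus rose together with AHRR, and CYP1B1 fell. CYP1A1 was 29 CPM on average in GSK and CYP1A2 32 CPM, and COMBO differed from GSK by -0.22 (adjusted p = 0.036) for CYP1A1 and by 0.88 (adjusted p = 1.26e-07) for CYP1A2 on the log2 scale, in opposite directions.

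HOX genes and other developmental factors are common targets of PRC2. Of 39 HOX genes 24 passed the filter on low counts, and of these 14 rose, 3 fell and 7 did not pass the test (median 0.79). Over all genes 43.3% were higher, and 63.5% and 55.9% of those at a mean log2 CPM of 0 to 2 and of 2 to 4. The part of level in the HOX count was not tested. HOX genes and other factors near 0 counts in DMSO could pass the filter only through arms where they were higher. Their rises, and the counts that include them, are not independent of it. HOXC4 was at 2.84, 3.48 and 4.16 CPM in DMSO and 28.3, 24.3 and 26.3 CPM in COMBO (log2 fold change 2.81, SE 0.129, adjusted p = 4.99e-14), with exons shared with HOXC6. HOXB13, the prostate HOX factor, was at 446, 512 and 495 CPM in DMSO and 296, 305 and 309 CPM in COMBO (log2 fold change -0.68, SE 0.0478, adjusted p = 5.82e-11), and HOXA10 fell by 2-fold. Of 98 other developmental factors 61 passed the filter, with 26 higher, 20 lower and 15 not past the test (median 0.24), a share of rises near the 43.3% of all genes. MEIS3, a HOX cofactor, and SOX6 rose from at most 0.361 CPM to at least 2 CPM. WT1 and DLX1 fell, WT1 from 8.79 to 9.24 CPM to 1.68 to 2.04 CPM and DLX1 from 18.3 to 20.3 CPM to 3.28 to 4.12 CPM. The members that did not pass the filter had too few counts for a direction.

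Most matrix and adhesion genes tested were higher in COMBO. Of 72 cadherins, integrins, laminins and collagens 52 were tested, with 43 higher, 2 lower (CDH13 and LAMA1) and 7 not past the test (median 1.10). Over all genes 43.3% were higher. That share was larger among scarce and long genes, 63.5% at a mean log2 CPM of 0 to 2 and 71.3% for protein-coding spans of 300 kb and over. The part of level and span in this list was not tested. Members near 0 counts in DMSO could pass the filter only through arms where they were higher, so the count of rises is not independent of it. COL12A1, a fibril-associated collagen, was at 21.9, 24.3 and 23.1 CPM in DMSO and 308, 272 and 330.3 CPM in COMBO (log2 fold change 3.71, SE 0.0947, adjusted p = 6.01e-18). FN1, fibronectin, was at 298, 264 and 277 CPM in DMSO and 2658, 2522 and 2867 CPM in COMBO (log2 fold change 3.26, SE 0.0828, adjusted p = 5.54e-18), with the second largest gain in CPM of the called genes after MALAT1. COL17A1, a collagen of hemidesmosomes, rose from 0.105 to 0.221 CPM to 3.2 to 4.41 CPM. CDH1, E-cadherin, was at 752, 726 and 717 CPM in DMSO and 713, 741 and 768 CPM in COMBO, with overlapping groups (adjusted p = 0.681). Among mesenchymal markers VIM rose by 2.63-fold and COL1A1 by 3.33-fold, SNAI1 fell by 2.45-fold, and SNAI2 overlapped between the groups. Of 16 such markers 9 were tested, with 4 higher, 2 lower and 3 not past the test, and the summed level went from 326 to 351 CPM in DMSO to 2650 to 3010 CPM in COMBO, most of it FN1, with 2 markers at 0 in all 6 libraries. Of 19 neuroendocrine markers 6 were tested, with a summed level of 67.7 to 73.3 CPM in DMSO and 155 to 164 CPM in COMBO, 4 higher and 2 not past the test. DDC, the aromatic amino acid decarboxylase, rose by 2.39-fold, SYT11 and NCAM1 rose but reached at most 1.31 CPM and 1.28 CPM, and SYP was at 1.26, 1.6 and 1.88 CPM in DMSO and 1.51, 1.95 and 2.04 CPM in COMBO, with overlapping groups.

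Of 38 interferon response genes tested 27 rose, 5 fell and 6 did not pass the test (median 1.08), against 43.3% higher and 39.2% lower over all genes. Among all genes at a mean log2 CPM of 0 to 2, 63.5% were higher, and the part of level in this list was not tested. IFI16, a DNA sensor, was at 0, 0.0553 and 0.0241 CPM in DMSO and 1.92, 1.11 and 0.947 CPM in COMBO, a ratio of pooled counts of 52.9-fold (95% counting interval 14.1 to 445, from 2 and 71 counts). SAMD9, an interferon-induced antiviral factor, rose from 0.105 to 0.332 CPM to 2.62 to 3.24 CPM, so the largest rises of the list were in genes that were scarce in DMSO. Genes this scarce there could pass the filter on low counts only through arms where they were higher, so their rises are not independent of it. USP18, IFIH1 and OAS3, which are induced by interferon in most cells, fell by 1.79-fold, 1.53-fold and 1.41-fold, and ISG15, MX1 and IFIT1 did not pass the test. Of 21 genes of MHC class I and antigen processing 15 rose and 4 fell, against the same shares over all genes. The list also holds HLA-DRA, an MHC class II gene, with 1 count in DMSO and 81 in COMBO. The immunoproteasome subunit PSMB8 rose from 2.36 to 3.79 CPM to 9.11 to 10.8 CPM, and TAP2, a subunit of the peptide transporter, fell by 1.89-fold. PSMB8 and PSMB9 share exons.

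Genes of the androgen response mostly rose in medium that is low in androgens. Of 30 tested members 22 rose, 6 fell and 2 (ELL2 and FOXA1) did not pass the test (median 0.55). Over all genes 43.3% were higher and 39.2% lower. KLK3, which encodes PSA, was at 539.6, 637 and 613 CPM in DMSO and 2011, 1824 and 1695 CPM in COMBO (log2 fold change 1.63, SE 0.0695, adjusted p = 1.60e-14), and KLK2 was at 47.7, 53.7 and 51.7 CPM in DMSO and 178, 155 and 148 CPM in COMBO, a rise of 3.12-fold. ACPP, prostatic acid phosphatase, had a larger rise, at 26, 28.5 and 29.7 CPM in DMSO and 421, 442 and 440.3 CPM in COMBO (log2 fold change 3.93, SE 0.0635, adjusted p = 8.85e-21), and TMPRSS2 rose by 4.69-fold with exons shared with MX1. FKBP5, a cochaperone that androgen and glucocorticoid induce, fell from 206 to 209 CPM to 72.2 to 77.2 CPM (log2 fold change -1.49, SE 0.0452, adjusted p = 7.87e-17). The secreted enzymes KLK2, KLK3 and ACPP rose, and FKBP5, CENPN and ACSL3 were the largest falls of the list. FOXA1, at 445, 437 and 439 CPM in DMSO and 446, 488 and 457 CPM in COMBO, had an adjusted p of 0.125.

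Of 16 genes of steroid metabolism tested 7 rose, 6 fell and 3 did not pass the test, shares near those of all genes tested (43.3% higher and 39.2% lower). AKR1C3, which makes testosterone from androstenedione, was at 0.316, 0.166 and 0.12 CPM in DMSO and 5.34, 4.88 and 3.86 CPM in COMBO (log2 fold change 4.82, SE 0.357, adjusted p = 1.16e-10), and the closely related AKR1C1 and AKR1C2 also rose, by 10.3-fold and 6.86-fold. Reads of such near-identical genes can be split between them. UGT2B15, which glucuronidates androgens, fell by 2.87-fold. Among 16 surface proteins used as therapy targets 11 rose and 4 fell, against the same 43.3% and 39.2% of all genes. FOLH1, which encodes PSMA, was at 1186, 1162 and 1186 CPM in DMSO and 1638, 1735 and 1648 CPM in COMBO (log2 fold change 0.51, SE 0.0367, adjusted p = 8.13e-11), and ERBB2 was at 101, 109 and 100.2 CPM in DMSO and 261, 257 and 282 CPM in COMBO (log2 fold change 1.36, SE 0.0496, adjusted p = 1.25e-15). PSCA rose by 5.84-fold, while STEAP1 and EPCAM fell by 1.47-fold and 1.43-fold. MUC1, a mucin, was at 0.947, 0.94 and 1.18 CPM in DMSO and 7.14, 6.48 and 6.41 CPM in COMBO, and F3, tissue factor, had a ratio of pooled counts of 39.5-fold (95% counting interval 10.4 to 334, from 2 and 53 counts).

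Of 14 BCL-2 family members tested 6 rose, 7 fell and BAD did not pass the test, against 43.3% higher and 39.2% lower over all genes, so the split is near the background. BMF, a BH3-only protein, was at 16.8, 14.5 and 14.9 CPM in DMSO and 133, 128 and 138 CPM in COMBO (log2 fold change 3.13, SE 0.0612, adjusted p = 1.78e-19). BBC3, which encodes PUMA, and BCL2L11, which encodes BIM, rose by 2.09-fold and 1.94-fold, and PMAIP1, which encodes NOXA, was at 15.1, 13.5 and 15 CPM in DMSO and 1.63, 2.31 and 2.48 CPM in COMBO (log2 fold change -2.77, SE 0.133, adjusted p = 1.13e-13). The effectors BAX and BAK1 fell by 1.85-fold and 2.48-fold. Of the antiapoptotic members BCL2 fell by 1.95-fold, BCL2L1 rose by 1.13-fold and MCL1 fell by 1.14-fold under TMM but had a log2 fold change of 0.016 with library totals. With library totals 4 members of the family fell. Of 32 caspases, death receptors and p53 targets 17 rose and 12 fell, against the same 43.3% and 39.2% of all genes. SESN1, a sestrin that p53 and FOXO factors induce, was at 70.4, 58.4 and 64.2 CPM in DMSO and 398, 405 and 387 CPM in COMBO (log2 fold change 2.63, SE 0.0566, adjusted p = 6.14e-19), and TP53INP1 rose by 4.17-fold. MLKL, the executor of necroptosis, and FAS fell by 4.72-fold and 2.12-fold, with exons of FAS shared with ACTA2 and STAMBPL1. MYC was at 249, 263 and 249 CPM in DMSO and 294, 286 and 294 CPM in COMBO (log2 fold change 0.20, SE 0.051, adjusted p = 0.00149), and its antagonists MXD4, MXI1 and MNT rose by 2.13-fold, 1.51-fold and 1.45-fold while MXD3 fell by 2.68-fold and MAX by 1.33-fold.

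Whether COMBO against DMSO differs from each single agent against DMSO is tested by COMBO against that agent, since DMSO cancels. Of the 14189 genes 10778 (76%) differed between COMBO and GDC, 5383 higher (37.9%) and 5395 lower (38%) in COMBO. Between COMBO and GSK 6516 (45.9%) differed, 2698 higher (19%) and 3818 lower (26.9%), and with a change of at least 2-fold 2032 were higher (14.3%) and 1062 lower (7.48%) in COMBO than in GDC, while 157 were higher (1.11%) and 265 lower (1.87%) than in GSK. All these contrasts share the COMBO libraries. The replication and mitosis lists stood below both agents. Of 52 replication genes 50 were lower in COMBO than in GDC and 49 lower than in GSK, with medians of -2.02 and -0.97, and of 48 mitosis genes 48 and 47 were lower. MCM10 averaged 93.8 CPM in GDC and 30.1 CPM in GSK, and COMBO differed from GSK by -2.96 (adjusted p = 8.07e-15) on the log2 scale. All 31 proteasome subunits and 23 of 24 chaperones were lower in COMBO than in GSK.

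Over all genes 37.9% were higher and 38% lower in COMBO than in GDC, and 19% were higher and 26.9% lower than in GSK. The lists are given against these shares. Of 38 interferon genes 28 were higher and 6 lower than in GDC. Against GSK 5 interferon genes were higher and 9 lower, near the shares of all genes. Of 24 HOX genes 16 were higher and 4 lower than in GDC, and 2 were higher and 2 lower than in GSK. Within the amino acid list 7 genes were higher and 20 lower than in GDC, while 15 were higher and 7 lower than in GSK, and PSAT1 was 101 CPM in GSK, from which COMBO differed by -0.0096 (adjusted p = 0.888). Of 30 members of the androgen response list 21 were higher and 6 lower than in GSK, and 15 were higher and 9 lower than in GDC. For MYC, COMBO differed from GDC by -0.58 (adjusted p = 2.52e-09) and from GSK by 0.75 (adjusted p = 6.16e-10) on the log2 scale, lower than in GDC and higher than in GSK. IGF1 averaged 228 CPM in GDC and 22.7 CPM in GSK, and COMBO differed from GSK by 0.14 (adjusted p = 0.209).

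**Figure D4:**
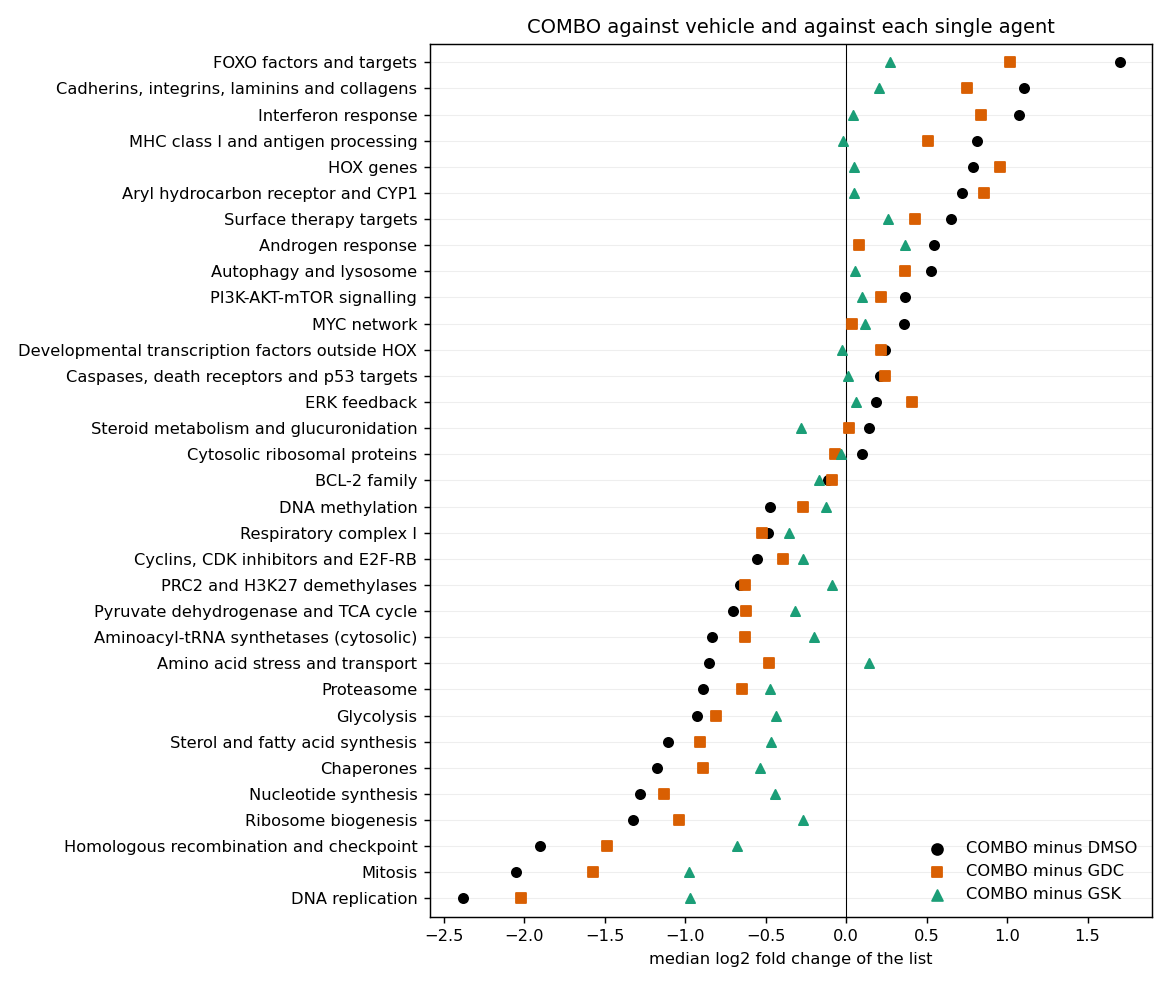
Median log2 fold change of each of 33 lists in COMBO minus DMSO (circles), COMBO minus GDC (squares) and COMBO minus GSK (triangles). The replication list lies at -2.38, -2.02 and -0.97, and the interferon list at 1.08, 0.84 and 0.043.

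Gene structure and level went with the direction of change. Among genes with a mean under 0 on the log2 CPM scale 68.5% were higher in COMBO and 5.97% lower. Among those at 8 or over 30.4% were higher and 58.7% lower. Level is the mean over the 12 libraries. A gene near 0 counts in DMSO could pass the filter only through arms where it was higher. The shares at low levels are thus not independent of the filter. Of 540 protein-coding genes that span 300 kb or more 385 were higher (71.3%) and 87 lower, with a median of 0.82, against 38.7% higher among 10260 genes under 100 kb. The difference by span was present within each range of level, and at a mean log2 CPM of 5 or more 63.6% of the longest genes and 26.2% of the genes under 100 kb were higher. Of 246 long noncoding RNAs 146 were higher and 34 lower. MALAT1, a nuclear noncoding RNA, was at 818, 835 and 692 CPM in DMSO and 6548, 4105 and 4962 CPM in COMBO (log2 fold change 2.74, SE 0.147, adjusted p = 6.41e-13), with the widest spread between COMBO libraries of the genes named by gain in CPM. Of 48 small nucleolar RNAs 0 were higher and 21 lower. Reads outside genes moved with these values, at 15.4% ± 0.523 of uniquely aligned reads in DMSO and 23.95% ± 1.2 in COMBO (SD, n = 3). The groups did not overlap, and the exact permutation test, two-sided, gave p = 0.1, the smallest that 3 against 3 libraries allow. The part of these reads in the result by gene span was not tested.

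**Figure D5:**
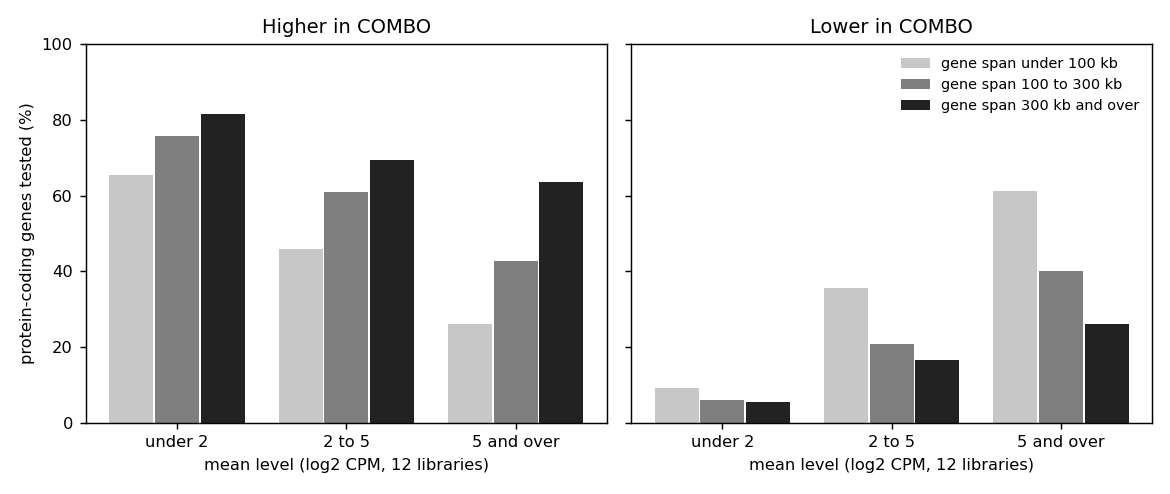
Share of protein-coding genes tested (%) that were higher (left) or lower (right) in COMBO, by mean level and by gene span. In each range of level the genes of 300 kb and over have the highest share of rises, from 63.6% to 81.5%.

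A few abundant genes gave no difference at this depth. Among genes with a mean log2 CPM of at least 8, those with the smallest changes were RPLP2, PRRC2C, RNF187, H3F3B and TPD52, each with overlapping groups. RNF187 was at 297, 325 and 312 CPM in DMSO and 301, 316 and 319 CPM in COMBO, and H3F3B, which encodes histone H3.3, at 487, 489 and 479 CPM in DMSO and 475, 524 and 458 CPM in COMBO. GAPDH, often used as a reference gene, was at 3752, 4086 and 3856 CPM in DMSO and 2158, 2218 and 2220.5 CPM in COMBO, a fall of 1.77-fold, with 65 named pseudogenes. HIF1A was at 242, 229 and 242 CPM in DMSO and 232, 257 and 249 CPM in COMBO (adjusted p = 0.357), while SLC2A1, the glucose transporter it induces, fell by 2.31-fold.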

How the data were processed

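Per the labels and the study's methods, polyA RNA was sequenced, and the authors used STAR on hg38 and HTSeq to count reads per gene. The deposited counts are raw whole numbers for 23228 gene symbols. Tool versions, gene annotation and strand setting are not given in the sources used here. The 5 summary lines were dropped. The authors' normalized table was not used here.

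Genes were kept by filterByExpr (14189), scaled by TMM and fitted with edgeR 4.0.16 (glmQLFit and glmQLFTest, R 4.3.3) over all 12 libraries with 1 coefficient per arm. A gene near 0 counts in DMSO could pass this filter only through arms where it was higher, so its rise is not independent of the filter. The common biological coefficient of variation was 0.0499. Contrasts were COMBO minus DMSO, GDC and GSK, two-sided, with a threshold of 0.05 on the Benjamini-Hochberg adjusted p over all genes tested. A gene with 0 counts was set against a floor of 3 pooled counts, and intervals cover counting error only (95%). Ratios of pooled counts and these bounds use library totals without TMM. In the fits, library totals raised the median log2 fold change of COMBO minus DMSO by 0.21. The pipeline was tested on simulated data. Replicates differed by more than sampling noise (chi-square per degree of freedom 2.48 to 6.18), so each counts as 1 sample.

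Coordinates are from GENCODE 44 (hg38), which placed 21472 symbols (92.4%), and RefSeq matched 21840 (94.0%). Named genes were the 12 largest rises and falls (mean log2 CPM of at least 2, no overlap between groups), the 3 largest of each list in each direction, every member of a list of 20 or fewer, the 6 largest gains and losses in CPM, the 5 with most counts among genes at 0 in an arm, 7 genes the study discusses, and the 5 abundant genes with the smallest change. Members named because they did not pass the test and the 3 mitosis promoters were chosen after their values were seen. The lists, the rule and the comparison were chosen with earlier results of these data known. Some genes are not reported here.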

Additional observations from a re-analysis of the deposited data

How the results depend on the processing

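The counts of COMBO against DMSO were 5689 higher and 5585 lower with DESeq2 1.42.0, 5939 and 5731 with edgeR on size factors from DESeq2, 6682 and 5918 when no gene was filtered, 5692 and 5311 with a mean CPM of at least 1, 5854 and 5651 with the 6 libraries only, and 5818 to 6081 and 5333 to 5680 without 1 library. Requiring a 2-fold change, they were 2822 and 1590, against GDC 2032 and 1062, and against GSK 157 and 265, and 177 list members were higher and 310 lower in place of 358 and 563. With library totals higher calls made up 63.3%, and 6 named genes changed sign: MBD1 0.054 (adjusted p = 0.355), UHRF2 0.19 (0.0104), MCL1 0.016 (0.764), CD46 0.016 (0.805), KRT18 0.19 (0.00108) and RPLP2 0.21 (0.000249). Of the named genes tested, 289 kept direction and side of the threshold with library totals and 308 to 314 in the 6 fits without 1 library. The replicate letters do not pair the libraries, since same-letter deviations correlated at -0.16, -0.247 and -0.0995 (A, B and C), and with the letter as a replicate block 6106 genes were higher and 5539 lower. The share of reads outside genes differed by 8.51 points of uniquely aligned reads and 7.63 points of all reads. Depth limits single values of genes under about 1 CPM, and a change in total RNA per cell cannot be seen after scaling.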
